A study of Mus musculus with 7 samples.

Results

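Liver holds resident and blood-borne lymphocytes among its hepatocytes, and 10 genes that mark lymphocytes and natural killer (NK) cells were followed through 7 RNA-seq libraries of mouse liver. The 10 genes were Ptprc and Cd52 (leukocytes in general), Cd3e and Cd3g (T cells), Cd79a, Cd79b and Ms4a1 (B cells), and Nkg7, Gzma and Ccl5 (NK and cytotoxic T cells). They were chosen by symbol among the 37468 gene rows that each library's table holds, and each symbol had a row in all 7 tables. Values are FPKM, fragments scaled by transcript length and library size, so levels of different genes are compared per length. Of the 10 genes, 9 were among the 15744 genes tested, which had to reach an FPKM of 1 in at least 1 library; Ms4a1 stayed below 1 in all 7.

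All 7 libraries were made from RNA of liver of C57BL/6 mice. The Myod1_active group had 1 library, from the liver of a SunTag-dCas9 mouse in which the muscle regulator Myod1 had been switched on. The Myod1_control group had 2 libraries, from SunTag-dCas9 controls of that experiment. The SunTag group had 2 libraries from mice of the SunTag-dCas9 genotype, and the WT group had 2 libraries from wild-type mice. SunTag-dCas9 is a Cas9 without cutting activity that carries a peptide array, through which antibody-fused effectors are brought to a chosen gene. The groups other than WT therefore share this allele. The labels state no age or sex, no promoter for the knocked-in gene, no method of Myod1 activation, and nothing on whether replicates were separate or pooled animals, and the spread behind the p-values may therefore be technical only. The series set SunTag against WT and Myod1_active against Myod1_control; Myod1_control against SunTag is added here as a comparison of the controls of 2 experiments.

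Lymphocytes are told apart by the receptors they carry. T cells read antigen through the T cell receptor, which signals through the CD3 chains, and B cells through membrane immunoglobulin, which signals through CD79a and CD79b. NK cells and cytotoxic T cells kill with granules that hold granzymes, and release chemokines that attract further leukocytes. Liver sinusoids are known to be rich in NK cells and other innate-like lymphocytes, and the blood left in the organ adds circulating cells. In bulk tissue, fewer cells of a type and less RNA per cell cannot be told apart.

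Read counts were unknown. The widths of the deposited intervals gave a relative depth of 0.881 to 1.14 of the 7 libraries' geometric mean, and 12971 to 13804 genes had an FPKM of 1 or more. Alb, the hepatocyte product albumin, lay between 28500 and 35430 FPKM in the Myod1 experiment and between 46480 and 54090 FPKM in libraries of SunTag and WT. Myod1 itself was at 3.52 FPKM in Myod1_active and was listed at 0 in the other 6 libraries, which fits the labels. Over the 15744 tested genes, SunTag replicate 1 stood somewhat apart from its own experiment: its correlations with SunTag replicate 2 and both WT libraries were 0.943 to 0.948 in log2(FPKM + 1), against 0.955 to 0.958 among those 3. Results that rest on it are given with and without it. Xist, transcribed from the inactive X chromosome, was at 0.00420 to 0.324 FPKM in the Myod1 experiment and at 56.9 to 82.2 FPKM in the other 4. The Y-linked gene Eif2s3y was at 30.3 to 37.3 FPKM in the Myod1 experiment and at 0 to 0.531 FPKM in the others. Experiment and sex therefore cannot be told apart wherever Myod1_control is set against SunTag.

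Ptprc (ENSMUSG00000026395, chr1:139959438-140071882 on mm9) encodes CD45, a receptor tyrosine phosphatase on nearly all nucleated blood cells. Its level was 0.856 FPKM in Myod1_active, 0.348 and 0.775 FPKM in Myod1_control, 3.11 and 1.97 FPKM in SunTag and 1.94 and 1.74 FPKM in WT. Every library of the Myod1 experiment was below every SunTag and WT library, and still held 18.9% to 46.5% of the WT mean. Cd52 (ENSMUSG00000000682, chr4:133638363-133650997) encodes a small lipid-anchored surface glycoprotein of lymphocytes and some myeloid cells. It was the most abundant of the 10 per length, at 5.20 FPKM in Myod1_active, 2.71 and 2.08 FPKM in Myod1_control, 41.8 and 14.6 FPKM in SunTag and 14.0 and 12.4 FPKM in WT. SunTag replicate 1 was the highest library for both genes. The span of Cd52 overlaps that of Aim1l, and no source used here says whether counting used strand, so reads of the pair may have been mixed.

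Cd3e (ENSMUSG00000032093, chr9:44806826-44817673) and its neighbour Cd3g (ENSMUSG00000002033, chr9:44777655-44788514) encode the epsilon and gamma chains of CD3, which carry the signal of the T cell receptor into the cell. Cd3e was at 0.191 FPKM in Myod1_active, 0 and 0.0219 FPKM in Myod1_control, 1.63 and 0.871 FPKM in SunTag and 0.614 and 0.841 FPKM in WT. Cd3g was listed at 0 in Myod1_active and was at 0.0331 and 0.385 FPKM in Myod1_control, 2.85 and 1.87 FPKM in SunTag and 2.32 and 2.31 FPKM in WT. Both genes were low in all 3 libraries of the Myod1 experiment, with no overlap with the other 4. The deposited intervals of Cd3g were wide: that of Myod1_control replicate 2 ran from 0 to 0.933 FPKM, and that of SunTag replicate 2 from 0.631 to 2.72 FPKM. The promoter of Cd3e is shown to set beside that of the B cell gene Cd79a below, although all the markers were low in the same libraries. The 250 bases before its transcription start, on the minus strand at chr9:45009612-45009861 of GRCm38.p6 (RefSeq), are given with capitals at the only match to the motifs searched, an ETS-type motif (GGAAGT, here on the reverse strand as ACTTCC) 18 to 13 bases before the start.
Cd3e: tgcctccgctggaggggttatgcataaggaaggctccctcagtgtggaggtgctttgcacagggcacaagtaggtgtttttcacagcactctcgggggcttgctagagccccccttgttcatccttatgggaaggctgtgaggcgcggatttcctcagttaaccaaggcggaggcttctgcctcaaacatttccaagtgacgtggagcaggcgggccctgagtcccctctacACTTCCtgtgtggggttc

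Motifs were searched on both strands of the 250 bases before the start: GGAAGT (ETS), TGTGGT (RUNX), AGGTGTGA (T-box) and CACCTG (E-box). Over 32851 such windows of RefSeq, 19.7% held the ETS motif, 14.0% the RUNX motif, 1.12% the T-box motif and 17.2% the E-box, so matches to 3 of the 4 are common among all windows. RefSeq windows were at hand for 6 of the 10 genes, and no 2 matches in the 3 windows printed overlap. The ETS motif was found for Cd3e, Cd79a and Ptprc, but not for Cd3g, Gzma and Nkg7, which were low in the same libraries. The matches describe letters and were not tested as binding sites.

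Cd79a (ENSMUSG00000003379, chr7:25682400-25687216) and Cd79b (ENSMUSG00000040592, chr11:106172655-106176076) encode the signalling chains of the B cell receptor. Cd79a was listed at 0 in Myod1_active and was at 0.0865 and 0.0647 FPKM in Myod1_control, 3.41 and 2.26 FPKM in SunTag and 2.997 and 1.44 FPKM in WT. Cd79b was at 0.0767 FPKM in Myod1_active, 0.109 and 0.218 FPKM in Myod1_control, 2.99 and 1.66 FPKM in SunTag and 1.95 and 1.34 FPKM in WT. For Cd79a the libraries of the Myod1 experiment were at 3.90% of the WT mean or less, and for Cd79b at 13.3% or less. Ms4a1 (ENSMUSG00000024673, chr19:11324654-11340669) encodes CD20, a surface protein of mature B cells. It was listed at 0 in all 3 libraries of the Myod1 experiment, and was at 0.498 and 0.327 FPKM in SunTag and 0.360 and 0.229 FPKM in WT. Its span overlaps that of 4930526L06Rik, and it was the lowest of the 10 in each SunTag and WT library. The Cd79a window is printed to set beside that of Cd3e, at chr7:24897247-24897496 on the plus strand of GRCm38.p6 (RefSeq). Its capitals mark an E-box on the reverse strand (CAGGTG) 154 to 149 bases before the start and the ETS-type motif GGAAGT 54 to 49 bases before it.
Cd79a: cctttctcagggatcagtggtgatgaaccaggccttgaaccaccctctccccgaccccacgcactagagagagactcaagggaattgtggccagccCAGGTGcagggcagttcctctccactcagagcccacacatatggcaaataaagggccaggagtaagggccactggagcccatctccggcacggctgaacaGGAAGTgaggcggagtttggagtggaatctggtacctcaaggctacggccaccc

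Nkg7 (ENSMUSG00000004612, chr7:50692443-50693616) encodes a membrane protein of cytotoxic granules. It was listed at 0 in all 3 libraries of the Myod1 experiment, and was at 2.28 and 1.02 FPKM in SunTag and 0.982 and 1.26 FPKM in WT. Gzma (ENSMUSG00000023132, chr13:113884033-113891187) encodes granzyme A, a serine protease of those granules. It was listed at 0 in Myod1_active and was at 0.361 and 0 FPKM in Myod1_control, 3.74 and 0.733 FPKM in SunTag and 1.08 and 1.53 FPKM in WT. SunTag replicate 2 was thus below both WT libraries and SunTag replicate 1 far above them. Ccl5 (ENSMUSG00000035042, chr11:83339280-83344020) encodes a chemokine that cytotoxic lymphocytes release. It was at 0.264 FPKM in Myod1_active, 0.246 and 0.246 FPKM in Myod1_control, 11.2 and 2.67 FPKM in SunTag and 4.11 and 4.75 FPKM in WT. The SunTag libraries again lay on either side of the WT libraries. The Nkg7 window is printed as the one of the 6 with a match to the rare T-box motif, at chr7:43436888-43437137 on the plus strand of GRCm38.p6 (RefSeq). Its capitals mark the RUNX motif on the reverse strand (ACCACA) 83 to 78 bases before the start and AGGTGTGA 14 to 7 bases before it.
Nkg7: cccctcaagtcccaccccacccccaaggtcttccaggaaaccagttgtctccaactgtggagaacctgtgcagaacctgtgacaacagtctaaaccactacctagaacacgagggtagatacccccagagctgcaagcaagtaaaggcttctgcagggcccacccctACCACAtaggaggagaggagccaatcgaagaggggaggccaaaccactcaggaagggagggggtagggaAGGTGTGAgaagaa

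**Figure D1:**
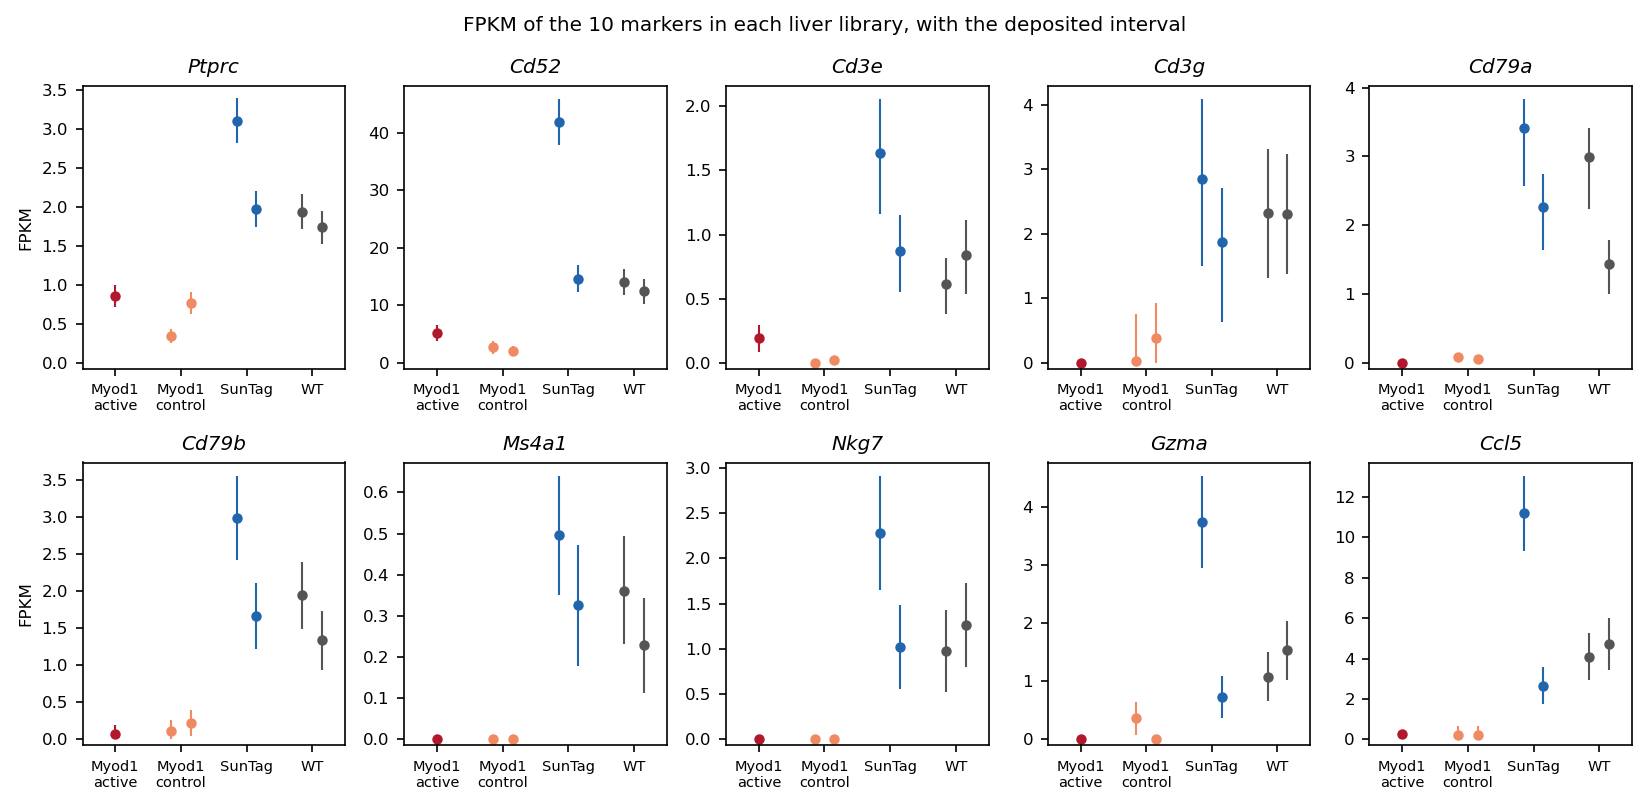
FPKM of the 10 markers in each library (vertical axes, one scale per gene), by group along the horizontal axis; each point is 1 library and each bar the interval deposited with its value. In all 10 panels the libraries of the Myod1 experiment lie below the SunTag and WT libraries, and in all 10 SunTag replicate 1 is the highest.

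In WT liver the order of the means was Cd52 (13.2 ± 1.15 FPKM), Ccl5 (4.43 ± 0.451), Cd3g (2.32 ± 0.00747), Cd79a (2.22 ± 1.10), Ptprc (1.84 ± 0.141), Cd79b (1.64 ± 0.429), Gzma (1.31 ± 0.320), Nkg7 (1.12 ± 0.196), Cd3e (0.727 ± 0.160) and Ms4a1 (0.295 ± 0.0925), each ± SD with n = 2. From Cd3g to Nkg7 neighbours in this order were closer than the spread of at least 1 of the pair. Cd52 and Ccl5 stood above the rest, and Ms4a1 below it, by more than their own spread.

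By lineage, the summed FPKM of Cd3e and Cd3g was 0.191 in Myod1_active, 0.0331 and 0.407 in Myod1_control, 4.48 and 2.74 in SunTag and 2.93 and 3.15 in WT. For Cd79a, Cd79b and Ms4a1 the sums were 0.0767 in Myod1_active, 0.196 and 0.283 in Myod1_control, 6.90 and 4.25 in SunTag and 5.30 and 3.01 in WT. Nkg7, Gzma and Ccl5 summed to 0.264 in Myod1_active, 0.608 and 0.246 in Myod1_control, 17.2 and 4.42 in SunTag and 6.17 and 7.54 in WT. T, B and cytotoxic markers were thus all close to 0 in the Myod1 experiment, where 5 of the 10 genes were listed at 0 in Myod1_active and 3 in each Myod1_control library, against none in the other 4 libraries. Of the 15744 tested genes 668 to 730 were listed at 0 in the Myod1 experiment, against 486 to 569 in the other 4 libraries. An exact 0 in such tables can be a failed estimate, although the deposited status of every marker value was OK.

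Between the controls of the 2 experiments, 8 of the 9 tested markers were lower in Myod1_control than in SunTag by limma at an adjusted p under 0.05, and Gzma was not called. With only these 2 groups in the fit limma called 0 of 9, against 1.01% of 15163 genes lower. At an unadjusted p under 0.05 in that fit it was 8 of 9, against 5454 of the 15163 genes in either direction. The relative depth was 0.881 and 0.882 in Myod1_control, 1.07 and 0.976 in SunTag and 1.14 in Myod1_active. The part of depth in the low markers was not tested. Of all 15744 genes, 17.0% were lower and 7.30% higher in this comparison. All markers but Cd52 passed the filter on low values only through SunTag and WT libraries, so that 8 of 9 supports nothing by itself. Without the filter, where all 10 could be tested, 7 of 10 were called lower, against 7.54% of 25634 genes; the 3 not called were Ptprc, Gzma and Ccl5. In all 10 genes both Myod1_control libraries were below both SunTag libraries, which was so for 41.6% of the tested genes.

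Log2 differences below are on the log2(FPKM + 1) scale, which understates the change of low genes, and are taken relative to the median gene, which lay 0.14 lower in Myod1_control; the SE and p of limma belong to the difference before that shift. Cd52 averaged 2.40 ± 0.447 FPKM in Myod1_control and 28.2 ± 19.2 FPKM in SunTag (SD, n = 2 each), a log2 difference of -2.80 (SE 0.486, adjusted p = 0.0237). Ptprc averaged 0.562 ± 0.302 FPKM in Myod1_control and 2.54 ± 0.800 FPKM in SunTag, a log2 difference of -1.04 (SE 0.234, adjusted p = 0.0301). In linear terms the SunTag mean was 11.8 times that of Myod1_control for Cd52 and 4.52 times for Ptprc. For the receptor genes the log2 differences were -1.34 for Cd3g, -0.999 for Cd3e, -1.68 for Cd79a and -1.35 for Cd79b, with adjusted p between 0.0218 and 0.0288. Ccl5 differed by -2.29 (SE 0.568, adjusted p = 0.0414) and Nkg7 by -1.23 (SE 0.268, adjusted p = 0.0295). Gzma differed by -1.16 (SE 0.510, adjusted p = 0.123); its SunTag libraries lay further apart from each other than either lay from the WT mean.

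**Figure D2:**
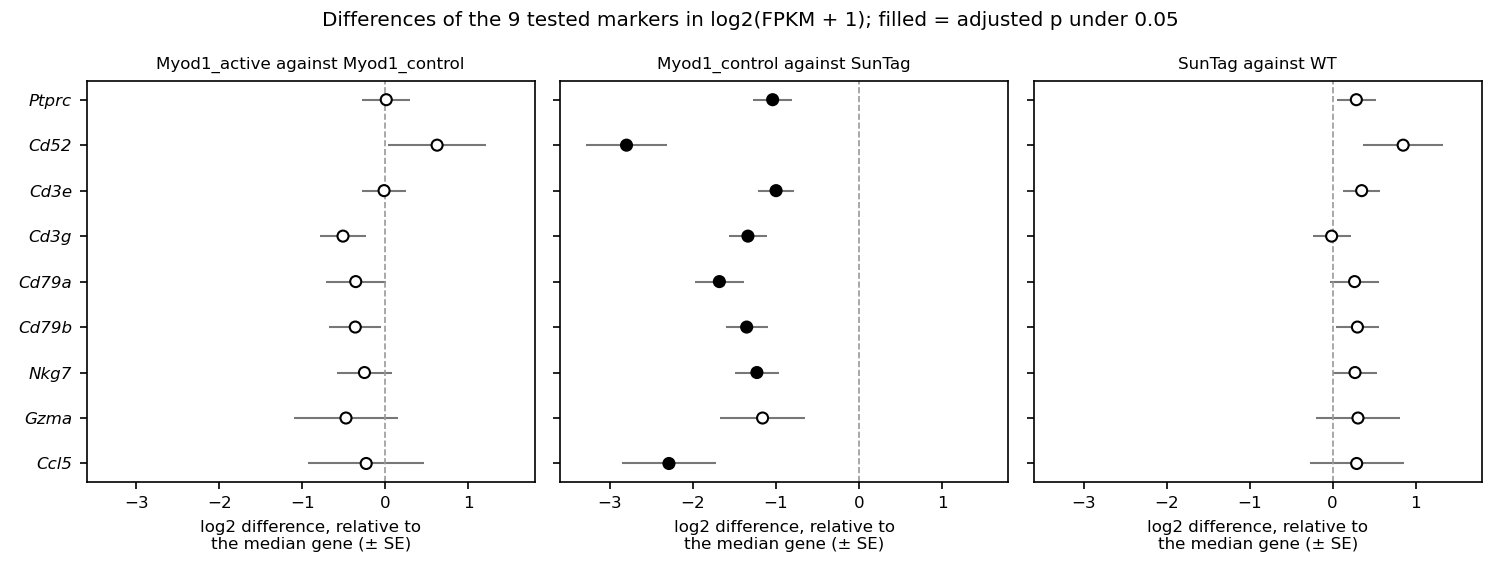
Log2 difference of the 9 tested markers in log2(FPKM + 1), relative to the median gene (horizontal axes), with the SE of limma as bars, for Myod1_active against Myod1_control, Myod1_control against SunTag and SunTag against WT; filled points had an adjusted p under 0.05. In the middle panel all 9 lie between -2.80 and -0.999 and 8 are filled, and no point is filled in the other panels.

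These calls rest on few libraries. The number of markers called lower fell to 0 without WT replicate 1 or 2, which served only to estimate the spread. It also fell to 0 without Myod1_control replicate 1 or 2. Without SunTag replicate 1 it was 2 of 8 (Cd52 and Ccl5), against 4.66% of 15436 genes lower, and without SunTag replicate 2 it was 9 of 9, against 18.8% of 15648 genes. No fit that left out a library, and no other alternative, turned the direction of a marker tested in it. The log2 differences stayed between -3.86 and -0.44. Cd3e did not pass the filter without SunTag replicate 1 and was not tested in that fit.

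Further genes of the same cells were read from lists, which the markers are part of, and no test of a list was made. Many listed genes passed the filter only through SunTag or WT libraries, as did 7 of 19 tested pan-leukocyte, 7 of 11 T cell, 4 of 7 B cell and all 7 NK and cytotoxic genes, so counts over tested genes support nothing by themselves. Without the filter, 7 of 22 pan-leukocyte, 7 of 22 T cell, 7 of 22 B cell and 3 of 26 NK and cytotoxic genes were lower in Myod1_control than in SunTag, against 7.54% of all genes. The median log2 differences were then -1.14, -0.26, -0.41 and -0.16 in that order of lists, relative to the median of all genes. Without SunTag replicate 1 the counts over tested genes were 4 of 18, 1 of 8, 0 of 7 and 1 of 3, against 4.66% of all genes.

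With the filter, 15 of 19 tested pan-leukocyte genes were lower, against the 17.0% of all tested genes given above. They included Arhgdib, a regulator of small GTPases in blood cells (-2.21, adjusted p = 0.0151), Tyrobp, the adaptor of activating myeloid and NK receptors (-1.87, adjusted p = 0.0407), and Cd37, a leukocyte tetraspanin whose span overlaps Tead2 (-1.38, adjusted p = 0.0182). Of 11 tested T cell genes, 7 were lower. Zap70, the kinase that binds phosphorylated CD3 chains, was at 3.70 FPKM in Myod1_active, 4.04 and 3.43 FPKM in Myod1_control, 21.3 and 15.5 FPKM in SunTag and 15.3 and 16.0 FPKM in WT (Myod1_control against SunTag -1.88, adjusted p = 0.0143). Lck, the kinase that acts before it, differed by -1.35 (adjusted p = 0.0189), and Thy1, a T cell surface glycoprotein, by -1.08 (adjusted p = 0.0295). Zap70 thus kept 3 FPKM or more in livers where Cd3e and Cd3g were near 0.

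Of 7 tested B cell genes, 4 of them tested only through SunTag or WT libraries, 6 were lower by limma, against 17.0% of all tested genes. They included Ly6d, a surface marker of early B cells (-1.13, adjusted p = 0.0480), and Faim3, a receptor for IgM (-0.94, adjusted p = 0.0305). Ly6d was nevertheless highest in Myod1_active, at 2.65 FPKM, and so did not follow the markers there. It was at 0.0555 and 0.387 FPKM in Myod1_control, 2.36 and 1.52 FPKM in SunTag and 2.19 and 0.924 FPKM in WT. Of 7 tested NK and cytotoxic genes, all tested only through SunTag or WT libraries, 4 were lower by limma, against 17.0% of all tested genes. The other 2 besides Ccl5 and Nkg7 were Il2rb and Xcl1. Il2rb, a chain of the interleukin-2 and interleukin-15 receptors, differed by -0.86 (adjusted p = 0.0284). Xcl1, a chemokine of NK and CD8 T cells, differed by -0.69 (adjusted p = 0.0490). Klrk1, the activating receptor NKG2D, missed the threshold (-0.76, adjusted p = 0.0587). In the Myod1 experiment 13 to 19 of the 26 listed NK and cytotoxic genes were listed at 0, against 0 to 2 in the SunTag and WT libraries. Only 7 of the 26 reached an FPKM of 1 in any library. Of the 15744 tested genes, all but Myod1 held to that minimum, 668 to 730 were at 0, against 486 to 569.

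Of the genes that transmit the antigen receptor signal, 13 of 20 were tested, 5 of them only through SunTag or WT libraries; 5 were lower and 1 was higher, against 17.0% and 7.30% of all tested genes. Without the filter 4 of 20 were lower and 0 higher by limma, against 7.54% and 2.80% of all genes. The median log2 difference of the 13 was -0.57, and -0.44 without SunTag replicate 1. Fyn, a Src-family kinase also used outside lymphocytes, differed by -1.12 (adjusted p = 0.0299). The higher one was Plcg1, a phospholipase expressed in many cell types, at 15.1 FPKM in Myod1_active, 17.4 and 16.4 FPKM in Myod1_control, 6.88 and 9.46 FPKM in SunTag and 11.7 and 8.57 FPKM in WT (1.115, adjusted p = 0.0364). Of 18 lymphoid transcription factors 6 were tested and 1 was lower, a share near that of all genes; it was Ets1 (-1.31, adjusted p = 0.0171), a founding member of the ETS family. Without the filter 4 of 18 were lower, against 7.54% of all genes. Of 18 lymphocyte chemokines and receptors 12 were tested, 6 of them only through SunTag or WT libraries. Their median log2 difference was -0.95, and it was -0.70 over the 10 tested without SunTag replicate 1. Without the filter 4 of 18 were lower, against 7.54% of all genes. With it 5 of the 12 were lower, against 17.0% of all tested genes. Besides Ccl5 these included Cxcl16, the ligand of CXCR6 (-2.01, adjusted p = 0.0176), Cxcl13, which attracts B cells (-1.44, adjusted p = 0.0167), and Cxcl12, the ligand of CXCR4 made by stromal cells (-1.03, adjusted p = 0.0209). The spans of Plcg1, Fyn and Cxcl16 overlap those of other genes.

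Some leukocyte genes did not follow the markers. Lcp1, an actin-bundling protein of leukocytes, was at 48.1 FPKM in Myod1_active, 37.9 and 35.9 FPKM in Myod1_control, 27.8 and 31.1 FPKM in SunTag and 27.6 and 24.5 FPKM in WT. Cd4, the co-receptor of helper T cells, was at 7.38 FPKM in Myod1_active, 2.90 and 0.201 FPKM in Myod1_control, 0.389 and 0.379 FPKM in SunTag and 0.296 and 0.313 FPKM in WT. Both were highest in the library in which Cd3g, Cd79a, Ms4a1, Nkg7 and Gzma were listed at 0, and neither difference between Myod1_control and SunTag passed the test (adjusted p = 0.139 for Lcp1 and 0.420 for Cd4). Itgb2 and Itgax, integrin chains of leukocytes and of myeloid cells, were chosen after their values were seen. Itgb2 was at 9.92 FPKM in Myod1_active, 3.69 and 8.48 FPKM in Myod1_control, 3.95 and 2.56 FPKM in SunTag and 2.41 and 3.17 FPKM in WT, and Itgax was at 2.87 FPKM in Myod1_active, 0.227 and 2.04 FPKM in Myod1_control, 0.463 and 0.151 FPKM in SunTag and 0.150 and 0.209 FPKM in WT. Cd4, Itgax and Ptprc were each uneven between the Myod1_control libraries, Cd4 in one direction and the other pair in the opposite one.

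Markers of several other cell types were low in the same libraries. As a percentage of the WT mean, the summed FPKM of the 10 markers was 13.0% to 22.6% in the Myod1 experiment, against 95.7% to 252.5% in the SunTag and WT libraries. Of the wider lists of the same cells, NK and cytotoxic genes (26 with a row) were at 10.02% to 10.8%, against 67.2% to 215.6%, and the rest were less low. T cell genes (22) were at 22.6% to 54.1%, against 97.9% to 142%, B cell genes (22) at 25.9% to 57.3%, against 86.2% to 134%, and pan-leukocyte genes (22) at 54.5% to 89.3%, against 99.4% to 167%. The sum over all tested genes was at 79.1% to 86.3%, against 98.5% to 123%. Sums are weighted to the most abundant genes of a list. In Myod1_active Cd52 made up 5.20 of the 6.59 FPKM of the 10 markers, and Cd4 7.38 of the 14.7 FPKM of the T cell genes. Zap70 made up 15.3 of the 27.05 FPKM of the T cell genes in WT replicate 1. Kupffer cell and macrophage genes (12 with a row) were at 18.3% to 21.5%, against 88.1% to 153%. Sinusoidal endothelial genes (11) were at 20.4% to 30.4%, against 96.4% to 105%, and stellate cell genes (8) at 28.5% to 42.6%, against 99.6% to 177%. Red cell genes (9) were at 1.70% to 1.97%, against 99.6% to 272%, and hepatocyte genes (10) at 59.8% to 66.3%, against 89.0% to 107%. Alas2, one of the red cell genes, went the other way. It was at 34.0 FPKM in Myod1_active, 44.1 and 38.2 FPKM in Myod1_control, 21.7 and 13.8 FPKM in SunTag and 7.42 and 8.28 FPKM in WT. In Myod1_control against SunTag limma called 4 of 7 tested red cell genes lower and 1, Alas2, higher, against 17.0% and 7.30% of all tested genes. Without the filter 4 of 9 were lower and 0 higher, against 7.54% and 2.80% of all genes. The span of Alas2 overlaps that of Apex2. Alas2 made up 34.0 of the 40.0 FPKM of this list in Myod1_active and 44.1 of 46.1 FPKM in Myod1_control replicate 1. The globin gene Hba-a1 was at 0.692 to 1.25 FPKM in the Myod1 experiment and at 746 to 1927 FPKM in SunTag and WT. Hbb-b1 was at 0 to 3.18 FPKM in the Myod1 experiment and at 596 to 1851 FPKM in SunTag and WT. Monocyte and neutrophil genes (15) were at 13.1% to 24.9%, against 60.6% to 314.5%, and platelet genes (5) at 44.4% to 80.8%, against 94.9% to 197%. For some lists, lymphoid ones among them, the experiments overlapped. Lymphoid transcription factors (18) were at 55.2% to 109.7%, against 91.4% to 144%, and plasma cell genes (6) at 77.2% to 111%, against 80.0% to 164.5%. Dendritic cell genes (9) were at 57.6% to 119.6%, against 93.8% to 133%, and cholangiocyte genes (6) at 49.1% to 239%, against 65.1% to 111%. No defining gene of the Kupffer, endothelial, stellate or hepatocyte lists was at 0 in any library, while up to 3 red cell genes were. In Myod1_control against SunTag, 10 of 12 Kupffer genes and 10 of 11 endothelial genes were called lower, against 17.0% of all tested genes. It was 8 of 12 and 8 of 11 without the filter, against 7.54%, and 6 of 12 and 6 of 11 without SunTag replicate 1, against 4.66%. The part of red cell content, of the other non-hepatocyte cells or of sex in the low lymphocyte markers was not tested.

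**Figure D3:**
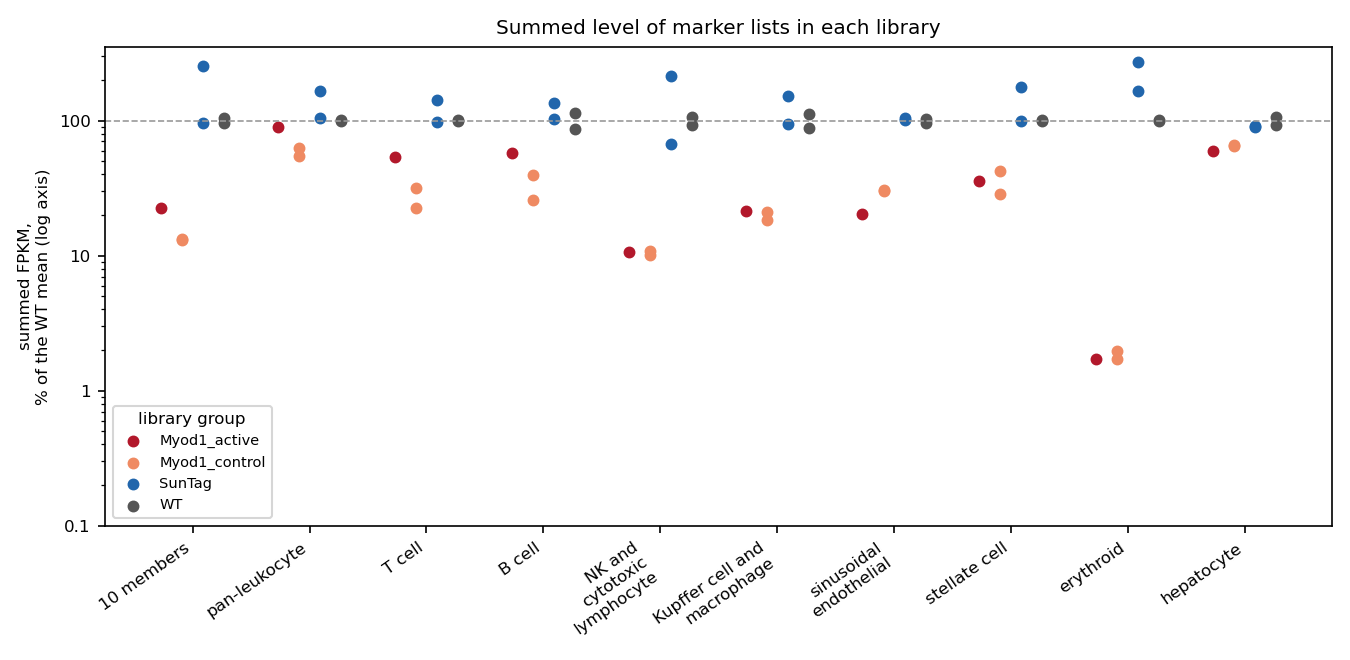
Summed FPKM of the 10 markers and of 9 lists of marker genes in each library, as a percentage of the WT mean (vertical log axis), coloured by group; each point is 1 library. Libraries of the Myod1 experiment lie below the SunTag and WT libraries for every list shown, by most for red cell genes (1.70% to 1.97%) and by least for pan-leukocyte and hepatocyte genes.

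In the comparison of genotypes within the other experiment, none of the 9 tested markers differed between SunTag and WT by limma (lowest unadjusted p = 0.136, every adjusted p = 1), where 0.127% of all genes were called. At an unadjusted p under 0.05 it was 0 of 9, against 1.95% of all genes. Relative to the median gene 8 of the 9 markers were higher in SunTag, with log2 differences of 0.27 to 0.85, and Cd3g differed by -0.01. The largest was Cd52, with 28.2 ± 19.2 FPKM in SunTag and 13.2 ± 1.15 FPKM in WT (SD, n = 2 each; SE of the log2 difference 0.486). The SunTag libraries were both above both WT libraries for Ptprc, Cd52 and Cd3e, 3 of the 10 markers, which was so for 13.0% of the tested genes. Without SunTag replicate 1 the log2 differences of Ptprc, Cd52 and Cd79b were 0.07, 0.14 and 0.02, and Nkg7, Gzma and Ccl5 turned to -0.06, -0.40 and -0.56. Cd3e did not pass the filter in that fit and was not tested. It was at 0.871 FPKM in SunTag replicate 2 and at 0.614 and 0.841 FPKM in WT. Without SunTag replicate 2 Ptprc, Cd52, Cd3e and Cd79b were at 0.52, 1.57, 0.59 and 0.59, and 6 of 9 markers had an unadjusted p under 0.05, against 12.9% of all genes, while limma still called 0 of 9.

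The excess was in SunTag replicate 1. Its level over that of SunTag replicate 2 was 1.51 to 1.88 for Ptprc, Cd3e, Cd3g, Cd79a, Cd79b and Ms4a1, 2.23 for Nkg7, 2.86 for Cd52, 4.204 for Ccl5 and 5.10 for Gzma. All 10 ratios were 1.5 or more, against 16.3% of the tested genes above 0 in both libraries. In 7 of the 10 the deposited intervals of both libraries were apart with replicate 1 higher, against 20.4% of 15547 tested genes; for Cd3g, Cd79a and Ms4a1 they overlapped. Between the WT libraries the ratio of replicate 1 to replicate 2 lay between 0.705 (Gzma) and 2.08 (Cd79a), and only for Cd79a were the intervals apart. All 3 B cell markers were higher in WT replicate 1, and Cd3e, Nkg7, Gzma and Ccl5 were higher in WT replicate 2. SunTag replicate 1 was also the highest library for 7 further summed lists: monocyte and neutrophil genes were at 314.5% of the WT mean in it, red cell genes at 272%, platelet genes at 197%, stellate cell genes at 177%, plasma cell genes at 164.5%, Kupffer genes at 153% and dendritic cell genes at 133%. Endothelial genes were at 101%, hepatocyte genes at 91.3% and cholangiocyte genes at 65.1%, and the sum over all tested genes was at 123%. S100a8, a neutrophil calcium-binding protein, was at 21.9 and 2.31 FPKM in SunTag and 7.80 and 4.88 FPKM in WT. The part of such cells in the lymphocyte values was not tested.

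**Figure D4:**
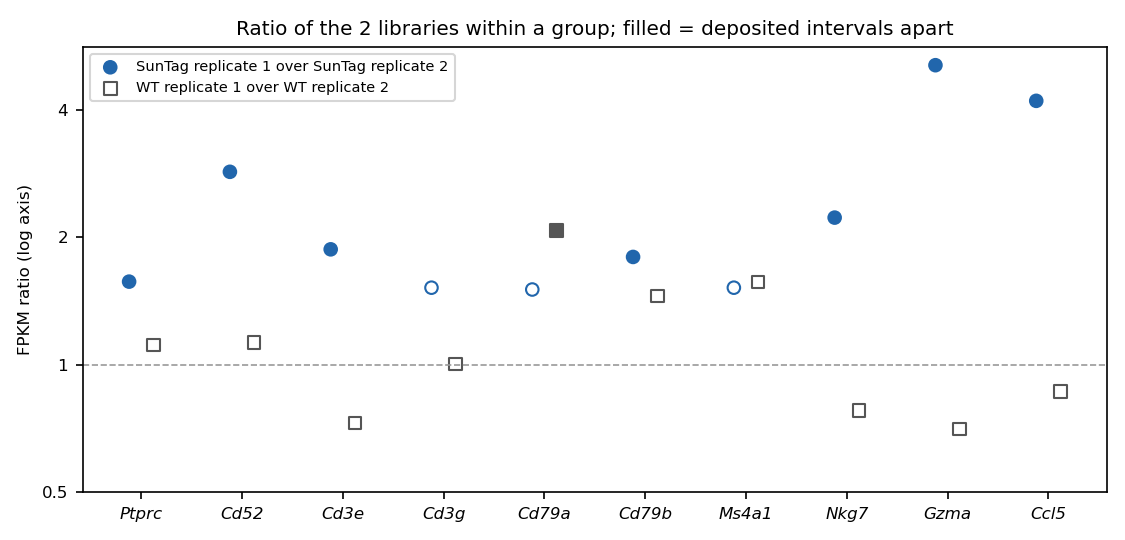
Ratio of FPKM between the libraries of a group for each of the 10 markers (vertical log axis), circles for SunTag replicate 1 over replicate 2 and squares for WT replicate 1 over replicate 2; filled symbols had deposited intervals apart. All 10 circles lie at 1.51 or above, up to 5.10 for Gzma, while the squares lie between 0.705 and 2.08.

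In the Myod1 experiment, none of the 9 tested markers differed between Myod1_active and Myod1_control by limma (lowest unadjusted p = 0.202), where 0.254% of all genes were called. At an unadjusted p under 0.05 it was 0 of 9, against 19.5% of all genes. Myod1_active was 1 library, so its spread was taken from the other groups, and the median gene lay 0.25 higher in it. Cd52 was at 5.20 FPKM in Myod1_active and 2.40 ± 0.447 FPKM in Myod1_control (SD, n = 2), a relative log2 difference of 0.62 (SE 0.595, adjusted p = 0.443). Ptprc differed by 0.01 (SE 0.286, adjusted p = 0.624). Cd3e, with 0.191 FPKM in Myod1_active against 0 and 0.0219 FPKM in Myod1_control, differed by -0.02 relative to the median gene, and its sign turned to 0.19 with median-ratio scaling and to 0.27 with quantile normalization. The other 6 lay between -0.51 and -0.23, and for Nkg7, listed at 0 in all 3 libraries, the -0.25 is the shift alone. Ptprc, Cd52, Cd3e and Ccl5 were higher in Myod1_active than in both Myod1_control libraries, 4 of 10 against 61.4% of the tested genes, and Cd3g, Cd79a and Cd79b lower than in both, 3 of 10 against 16.6%. At levels this close to 0 a difference could not be seen in most of the markers: the deposited interval of Cd79b, for example, began at 0 in Myod1_active and in Myod1_control replicate 1. The 3 comparisons share libraries (Myod1_control or SunTag), so they are not independent of each other.

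For 4 of the markers the genes with the most similar profile were listed, by the root mean square difference of log2(FPKM + 1), centred per gene, over the 7 libraries, among genes whose range was at least 0.5 of the marker's. Nkg7 (6178 genes compared) was closest to Ms4a4b (0.0417), a T and NK cell surface protein, which was at 0 FPKM in Myod1_active, 0.00757 and 0.0595 FPKM in Myod1_control, 2.24 and 1.13 FPKM in SunTag and 1.07 and 1.22 FPKM in WT. It was followed by Gimap3 (0.0710), a lymphocyte GTPase, Plac9 (0.0763), Serpina3g (0.0838), and Itgal (0.0854), the integrin chain of LFA-1. Ptprc (6726 genes) was closest to Med28 (0.0741), Arpp19 (0.0863), Minos1 (0.0880), Ncf1 (0.0903), a subunit of the phagocyte oxidase, and Ppp1r18 (0.0920). Cd3e (7834 genes) was closest to Tspan15 (0.0441), Cnih4 (0.0766), Fcf1 (0.0791), Chchd2 (0.0809) and Casp1 (0.0815). Cd79a (4266 genes) was closest to Bbip1 (0.169), Siglece (0.170), Morn2 (0.174), Ear2 (0.176) and Prex2 (0.186), with its partner Cd79b at rank 11 (0.207). Among these neighbours the lymphocyte genes were those of Nkg7 (Ms4a4b, Gimap3 and Itgal), while those of Ptprc included Med28, a Mediator subunit, and Minos1, a mitochondrial protein. All these profiles share the split of the 7 libraries into 2 experiments. Over the 7 libraries the marker nearest to Nkg7 was Cd79b (0.168, rank 67), and Cd3e lay nearer to Ptprc (0.132, rank 79) than to Cd3g (0.413). The profiles were centred but not scaled, so these distances also depend on the level of a gene. In WT, Cd3e averaged 0.727 FPKM and Cd3g 2.32 FPKM.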

How the data were processed

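Illumina libraries were prepared from liver RNA purified with a Direct-zol kit, per the labels' protocols. Mapping and quantification involved Cufflinks 2.2.1, TopHat2 2.1.1 and cutadapt 1.11 on build mm9, per the submitters' processing notes. The deposited values are FPKM per gene, each with its interval and status, per the file headers. Tool settings, annotation release, read length and use of strand are not given in the sources used here.

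Of 37468 rows, the 343 whose status was not OK in a library were left out, and rows of 244 symbols were summed. Genes with an FPKM of at least 1 in 1 library (and Myod1) were tested, 15744 in all, by limma 3.58.1 (R 4.3.3) on log2(FPKM + 1). The fit had 1 mean per group over all 7 libraries, with 3 residual and 1.93 prior degrees of freedom. Tests were two-sided, Benjamini-Hochberg adjusted over all genes, with a threshold of 0.05. Called counts and non-overlap shares used differences before the median gene's shift was taken off. The code was tested on simulated data. Depth was known only relatively, from the intervals, each side taken as 2 SD of a counting error; in each library 8.11% to 9.41% of rows lay outside their own intervals, but none of the 70 marker values did. No 2 tables shared more than 1 value above 0, so each counts as a sample.

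The 10 markers and all gene lists were chosen with earlier results of these data known. Of each list the rule named up to 4 genes past the threshold by size of difference, or else up to 3 (6 for lymphocyte and leukocyte lists) by level, and fewer were named than it allows; Itgb2 and Itgax were added after their values were seen. Marker lists of other cell types are given as sums over their rows. Alternatives were other pseudocounts, filters, scalings and fits, a block for the replicate number, short genes left out (spans under 300 bp), and each library left out.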

Additional observations from a re-analysis of the deposited data

How the results depend on the processing

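Myod1_control against SunTag kept the direction of each tested marker under all alternatives (0 of 150 values with the opposite sign), while calls depended on the fit. Leaving out 1 library, 0 to 9 markers and 58 to 4070 genes were called, against 8 and 3832. With only the 2 groups in the fit, 0 markers and 255 genes were called by limma. At an unadjusted p under 0.05 it was 8 markers, against 5454 of 15163 genes.

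In SunTag against WT 20 genes were called, 5 without short genes (with or without median-ratio scaling), 31 with only the 2 groups, and 23 to 79 leaving out 1 library. For Cd3g the sign turned without the filter (0.0012). Cd3e stayed below an FPKM of 1 without SunTag replicate 1, so the ranges given for it in this section leave that fit out. Leaving out 1 library, the log2 difference lay between -0.205 and 0.197 for Cd3g, 0.14 and 1.57 for Cd52, 0.07 and 0.52 for Ptprc, 0.02 and 0.59 for Cd79b, 0.23 and 0.59 for Cd3e, -0.067 and 0.59 for Cd79a, -0.061 and 0.62 for Nkg7, -0.40 and 1.03 for Gzma, and -0.56 and 1.16 for Ccl5.

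In Myod1_active against Myod1_control 40 genes were called, 23 with a pseudocount of 0.1, 253 without the filter, 20 without short genes, 9 with median-ratio scaling besides, 0 with only the 2 groups (2425 at an unadjusted p under 0.05, limma), and 49 to 119 leaving out 1 library. Cd3e turned to 1.08 and 0.15 with pseudocounts of 0.1 and 0.5, 0.17 without the filter, 0.19 with median-ratio scaling (0.186 also without short genes) and 0.27 with quantile normalization, and lay between -0.040 and 0.0047 leaving out 1 library. Ptprc turned to -0.0063 with a filter on mean FPKM and -0.0024 without short genes, and lay between -0.197 and 0.21 leaving out 1 library. In no alternative was a marker called in either of these comparisons. The causes of these changes were not tested.

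Replicate numbers did not pair the libraries: deviations from the group means of same-numbered libraries correlated at 0.043 (SunTag and WT) and 0.001 (Myod1_control and SunTag). With a replicate block, 5 markers were called lower in Myod1_control against SunTag (not Ptprc, Cd3e, Gzma and Ccl5), where 13.5% of 15744 genes were lower and 5.07% higher. In Myod1_active against Myod1_control 23 genes were then called, and Ptprc there was at -0.0059.

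With 1 or 2 libraries a group, and marker levels near 0 FPKM in the Myod1 experiment, small differences there could not be detected.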
